A study of Mus musculus with 6 samples.

Results

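Wnt target genes of pericentral hepatocytes were examined in the livers of 3 mice labelled WT and 3 mice labelled whole-body *Themis*-KO. The 10 genes were chosen by symbol, as genes known to be set by Wnt/β-catenin signaling in the hepatocytes around the central vein, out of 25403 genes listed. They are *Glul*, *Oat*, *Slc1a2*, *Rhbg*, *Lgr5*, *Axin2*, *Tbx3*, *Rnf43*, *Znrf3* and *Lect2*. All 10 passed the filter on low counts, which 14496 genes passed. The WT mice are labelled wild-type C57BL6/J and the others carry a *Themis* knockout in all cells, so the deletion is not limited to hepatocytes. Both groups ate the same MASH diet, in which fat supplied 40% of the calories and fructose 20%, with 2% cholesterol. Feeding began when the mice were 10 to 12 weeks old and lasted 3 months. The study describes the mice of this feeding experiment as male. Poly(A) RNA of whole liver was sequenced, 1 library per mouse, and no chow-fed liver is in the comparison.

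Liver lobules are zoned between the portal tract, where blood enters, and the central vein, where it leaves. Endothelial cells of the central vein release Wnt2, Wnt9b and Rspo3. Wnt ligands bind Frizzled receptors with Lrp5 or Lrp6, which stops the destruction complex of Apc, Axin and Gsk3 from degrading β-catenin, and β-catenin then acts with TCF factors on target genes. The cell surface ubiquitin ligases Rnf43 and Znrf3 remove Frizzled receptors, and R-spondins bound to Lgr4 or Lgr5 remove those ligases. Targets in the hepatocytes next to the vein include enzymes and transporters that capture ammonia, and several targets, such as *Axin2*, are themselves feedback inhibitors of the pathway.

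Depth ranged from 20679642 to 25649767 counts on genes per library. *Themis*, which encodes a T cell receptor signaling protein, did not separate the groups, with 8.07, 25.6 and 12.0 CPM (counts scaled to a common library size) in the livers labelled WT and 8.63, 7.74 and 9.97 CPM in those labelled *Themis*-KO (edgeR adjusted p = 0.199). Which exons the knockout removes is not given in the sources used here, so these counts do not check the labels. The livers also differed in how counts divided between *mt-Nd3* and *Gm28438*. This division is called mitochondrial type here, and it was inferred from the counts, as no label gives it. *Gm28438* took 96.6% and 96.8% of the summed counts of *mt-Nd3* and *Gm28438* in WT 1 and WT 2, but between 2.20% and 3.26% in WT 3 and the 3 *Themis*-KO livers. Mitochondrial type and genotype label therefore cannot be fully told apart, and WT 3 is the 1 WT liver of the same type as the *Themis*-KO livers. *Themis*-KO 3 stood apart from the other livers of its group, with a chi-square per degree of freedom of 41.3 and 42.3 against *Themis*-KO 1 and 2, which differed from each other by 9.83. It lay nearer to WT 3 (36.1) and about as near to WT 2 (41.2). Hepatocyte genes led the libraries in every liver, with 13 hepatocyte markers summing to between 73125 and 91057 CPM.

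Of the 10 genes, 3 were lower in the livers labelled *Themis*-KO and none was higher at an adjusted p under 0.05 (edgeR quasi-likelihood test, adjusted over all genes tested). Over all genes tested, 4.14% were lower and 4.97% higher by this rule, 9.11% in all. The 3 genes were *Oat*, *Slc1a2* and *Tbx3*, and of these *Oat* and *Slc1a2* fell by at least 2-fold, as 1.12% of all genes tested did. In 8 of the 10 genes the mean difference was negative, against 49.0% of all genes tested. The median log2 fold change was −0.51, beside 0.0095 over all genes tested. In 5 genes every *Themis*-KO liver lay below every WT liver, an arrangement found in 16.9% of all genes tested. The reverse arrangement was found in 17.7% of them and in none of the 10, so the groups did not overlap in 34.6% of all genes. In RNA of whole liver, fewer cells of a type and less RNA per cell cannot be told apart. Cell markers also moved with the groups. The summed level of the cholangiocyte markers was 170 to 209 CPM in WT livers and 402 to 635 CPM in *Themis*-KO livers, that of the stellate cell markers was 498 to 559 CPM against 752 to 793 CPM, and that of the hepatocyte markers was 81719 to 91057 CPM against 73125 to 74243 CPM. Most of the cholangiocyte sum was *Spp1*, at 137, 180 and 163 CPM in the WT livers and 571, 367 and 366 CPM in the *Themis*-KO livers. The part of these cells in the lower levels was not tested.

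**Figure D1:**
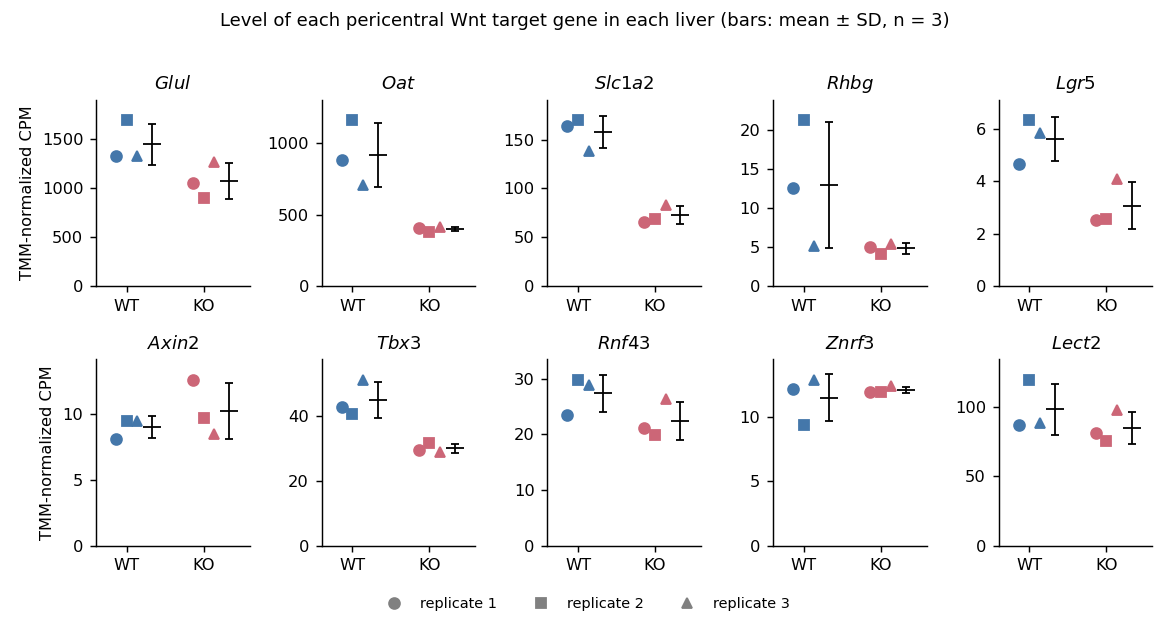
TMM-normalized CPM of the 10 genes in each liver, with each group's mean and SD beside its points (n = 3 livers per group). *Oat* and *Slc1a2* were lower in all 3 *Themis*-KO livers with wide gaps between the groups, whereas the WT liver 3 lay among the *Themis*-KO livers for *Rhbg*, and the groups overlapped for *Axin2*, *Znrf3*, *Rnf43* and *Lect2*.

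The stretches just upstream of 4 of these genes are printed to show the sequence over the starts of the pair with the most counts (*Glul* and *Oat*) and of the pair that holds a TCF motif (*Slc1a2* and *Lect2*). Each is the 250 bases before the RefSeq start in GRCm38.p6, written 5′ to 3′ on the gene's strand, and capitals mark the motif CTTTGAT or its complement ATCAAAG, a core sequence known to be bound by TCF factors. The windows are chr1:153899679-153899928 (plus strand) for *Glul*, chr7:132576399-132576648 (minus strand) for *Oat*, chr2:102706188-102706437 (plus strand) for *Slc1a2* and chr13:56548539-56548788 (minus strand) for *Lect2*.
Glul: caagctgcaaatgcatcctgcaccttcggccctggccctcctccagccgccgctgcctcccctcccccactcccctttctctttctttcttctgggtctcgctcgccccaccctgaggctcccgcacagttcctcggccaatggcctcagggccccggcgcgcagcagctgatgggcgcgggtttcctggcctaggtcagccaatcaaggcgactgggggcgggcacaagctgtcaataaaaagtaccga
Oat: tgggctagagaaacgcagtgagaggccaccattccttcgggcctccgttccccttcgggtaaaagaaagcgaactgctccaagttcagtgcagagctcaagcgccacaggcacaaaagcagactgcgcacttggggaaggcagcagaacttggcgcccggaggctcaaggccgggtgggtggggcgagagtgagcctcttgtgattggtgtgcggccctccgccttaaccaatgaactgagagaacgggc
Slc1a2: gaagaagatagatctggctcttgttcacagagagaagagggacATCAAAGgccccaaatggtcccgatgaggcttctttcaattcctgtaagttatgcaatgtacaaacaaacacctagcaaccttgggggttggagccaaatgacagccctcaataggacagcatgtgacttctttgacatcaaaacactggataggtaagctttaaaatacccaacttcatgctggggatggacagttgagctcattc
Lect2: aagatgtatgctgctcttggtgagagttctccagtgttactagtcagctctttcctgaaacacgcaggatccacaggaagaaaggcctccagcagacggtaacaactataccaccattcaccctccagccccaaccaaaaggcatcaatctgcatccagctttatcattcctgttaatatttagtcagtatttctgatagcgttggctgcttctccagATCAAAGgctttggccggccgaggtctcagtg
The motif lay 207 bases before the start in *Slc1a2* and 32 bases before it in *Lect2*. It was in none of the windows of *Glul*, *Oat*, *Axin2* and *Rnf43*, the other genes with an entry. Of 32851 promoter windows of this length, 3.21% held it on either strand. The *Slc1a2* window lies within the span of the gene in GENCODE, and gene counts do not show which start was used. Of the pair that holds the motif, *Slc1a2* was lower at the threshold and *Lect2* was not.

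Among the genes of nitrogen handling, 2 of 4 were lower at the threshold, where 4.14% of all genes tested were lower. *Oat* (chr7:132557478-132576398, minus strand) encodes the mitochondrial enzyme ornithine aminotransferase, which turns ornithine toward glutamate. It stood at 881, 1160 and 711 CPM in the WT livers and at 404, 381 and 412 CPM in the *Themis*-KO livers. The lowest WT liver, WT 3, was still above every *Themis*-KO liver, and the *Themis*-KO livers differed little among themselves (SD 16.2 CPM, against 227 CPM in WT, n = 3 each). *Oat* fell to 43.6% of the WT mean, a log2 fold change of −1.20 (SE 0.171, edgeR adjusted p = 0.0146). Against WT 3 alone the mean of the *Themis*-KO livers was 0.562 times as high. The adjusted p of *Oat* was 0.062 without WT 1, 0.0697 without *Themis*-KO 1 and 0.0828 without *Themis*-KO 2, with log2 fold changes between −1.23 and −1.17.

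*Slc1a2* (chr2:102658659-102790784, plus strand) encodes a transporter that takes up glutamate, the substrate for glutamine synthesis. Its levels were 164.5, 169.7 and 139 CPM in the WT livers and 65.8, 68.5 and 83.2 CPM in the *Themis*-KO livers. The groups were well apart, with *Themis*-KO 3 the highest of its group. The log2 fold change was −1.12 (SE 0.123, edgeR adjusted p = 0.00936), which left 46.0% of the WT mean, and the *Themis*-KO mean was 0.522 times the level of WT 3 alone. Of the 10 genes it had the smallest adjusted p. Without *Themis*-KO 1 its adjusted p was 0.0504, and it passed without any other single liver.

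*Glul* (chr1:153899944-153909723, plus strand) encodes glutamine synthetase, which joins ammonia to glutamate in the last hepatocytes before the central vein. It stood at 1322, 1685 and 1322 CPM in the WT livers and at 1049, 895 and 1261 CPM in the *Themis*-KO livers. Every *Themis*-KO liver was below every WT liver, but *Themis*-KO 3 lay close to the lowest WT livers. Its log2 fold change was −0.43 (95% interval −0.80 to −0.07, edgeR adjusted p = 0.111), so the difference did not pass the threshold. Without *Themis*-KO 3 it did (log2 fold change −0.59, adjusted p = 0.0245).

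*Rhbg* (chr3:88242874-88254709, minus strand) encodes a membrane transporter of ammonia. It was measured at 12.5, 21.2 and 5.13 CPM in the WT livers and at 4.97, 4.09 and 5.38 CPM in the *Themis*-KO livers. The high levels were those of WT 1 and WT 2, while WT 3 lay between the *Themis*-KO livers. The log2 fold change of −1.42 (95% interval −2.46 to −0.39) had an edgeR adjusted p of 0.0808. The mean of WT 1 and WT 2, the livers of the other mitochondrial type, was 3.29 times the level of WT 3, and the *Themis*-KO mean was 0.938 times that of WT 3. With mitochondrial type as a covariate the log2 fold change of *Rhbg* was −0.09, and without WT 3 it was −1.81 (adjusted p = 0.0202). *Rhbg* shares 1190 of its 1937 exonic bases with *Gm38392* on the same strand, so the division of reads between them is uncertain. *Gm38392* stood at 1.42, 3.70 and 3.31 CPM in the WT livers and 2.25, 2.49 and 1.84 CPM in the *Themis*-KO livers.

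The receptor and the feedback regulators did not pass the threshold in any of 4 cases. Whether they differed from the genes of nitrogen handling was not tested. *Lgr5* (chr10:115450311-115587780, minus strand) encodes a receptor for R-spondins. Its levels were 4.68, 6.33 and 5.84 CPM in the WT livers and 2.51, 2.58 and 4.11 CPM in the *Themis*-KO livers. All *Themis*-KO livers were below all WT livers, with *Themis*-KO 3 nearest to them. With a log2 fold change of −0.88 (95% interval −1.42 to −0.33), *Lgr5* had an edgeR adjusted p of 0.0562. Without *Themis*-KO 3 the log2 fold change was −1.16 and the adjusted p 0.00665. The *Themis*-KO mean was 0.525 times the level of WT 3.

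*Axin2* (chr11:108920349-108950783, plus strand) encodes a scaffold of the destruction complex and is a common readout of Wnt/β-catenin signaling. It stood at 8.07, 9.50 and 9.51 CPM in the WT livers and at 12.6, 9.68 and 8.45 CPM in the *Themis*-KO livers. The highest liver was *Themis*-KO 1 and the groups overlapped. The log2 fold change was 0.18 with a 95% interval of −0.21 to 0.58 (edgeR adjusted p = 0.494). This interval does not reach the log2 fold changes of *Oat* and *Slc1a2*, but whether *Axin2* differed from them was not tested. Exons of *Axin2* overlap those of *Gm11670* on the opposite strand over 209 bases, and the use of strand in counting is not given in the sources used here.

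*Znrf3* and *Rnf43* encode the ligases that clear Frizzled receptors. *Znrf3* (chr11:5276324-5444847, minus strand) was measured at 12.2, 9.41 and 12.9 CPM in the WT livers and at 12.0, 11.9 and 12.4 CPM in the *Themis*-KO livers. All 3 *Themis*-KO livers lay within the range of the WT livers, with a log2 fold change of 0.07 (95% interval −0.25 to 0.39, edgeR adjusted p = 0.753). That small difference became −0.06 without WT 2 and −0.09 with mitochondrial type as a covariate. *Rnf43* (chr11:87662722-87735539, plus strand) had 23.4, 29.7 and 28.8 CPM in the WT livers and 21, 20.0 and 26.4 CPM in the *Themis*-KO livers. *Themis*-KO 3 was above WT 1. The log2 fold change of *Rnf43* was −0.28 (95% interval −0.61 to 0.04, edgeR adjusted p = 0.208), and without *Themis*-KO 3 it was −0.43 (adjusted p = 0.0357).

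*Tbx3* (chr5:119670669-119684724, plus strand), a T-box transcription factor, was the third gene lower at the threshold. It stood at 42.8, 40.5 and 50.9 CPM in the WT livers and at 29.5, 31.5 and 28.7 CPM in the *Themis*-KO livers. The groups did not overlap, and WT 3 had the highest level of all livers. *Tbx3* had a log2 fold change of −0.58 (SE 0.106, edgeR adjusted p = 0.0262), which left 66.9% of the WT mean. Its adjusted p was between 0.0645 and 0.102 when WT 1, WT 2, *Themis*-KO 1 or *Themis*-KO 2 was left out, and it was 0.0543 with scaling by total counts alone. Exons of *Tbx3* overlap those of *Tbx3os1* on the opposite strand over 115 bases, and *Tbx3os1* stood at 6.24, 6.72 and 6.04 CPM in the WT livers and 3.70, 2.19 and 3.35 CPM in the *Themis*-KO livers. Without strand, reads of the shared bases cannot be told apart.

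*Lect2* (chr13:56542464-56548502, minus strand) encodes a protein that hepatocytes secrete. Its levels were 86.5, 119 and 88.6 CPM in the WT livers and 81.3, 75.1 and 97.5 CPM in the *Themis*-KO livers. *Themis*-KO 3 exceeded WT 1 and WT 3. The log2 fold change of *Lect2* was −0.21 (95% interval −0.56 to 0.14, edgeR adjusted p = 0.370).

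**Figure D2:**
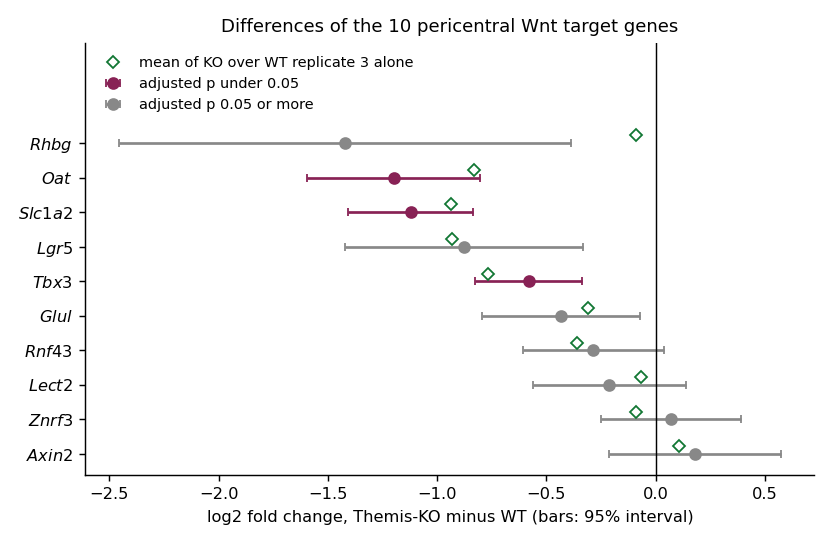
Log2 fold change (*Themis*-KO minus WT) of each gene with its 95% interval from edgeR, and, as open diamonds, the log2 ratio of the *Themis*-KO mean to WT 3 alone. The diamonds of *Oat*, *Slc1a2*, *Lgr5* and *Tbx3* stay well below 0, whereas that of *Rhbg* lies near 0.

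By an exact two-sided permutation test of CPM over the livers, whose smallest p with 3 against 3 is 0.1, *Oat*, *Slc1a2*, *Tbx3*, *Glul* and *Lgr5* reached p = 0.1, so this test cannot pass 0.05. The other 5 genes had exact permutation p-values from 0.2 (*Rhbg* and *Rnf43*) to 0.9 (*Znrf3*). With the mitochondrial type as a covariate, which leaves WT 3 as the only WT liver of the shared type, none of the 10 genes passed. In that fit the log2 fold changes of *Oat*, *Slc1a2* and *Tbx3* were −0.83, −0.94 and −0.77, with edgeR adjusted p-values of 0.264, 0.181 and 0.171.

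**Figure D3:**
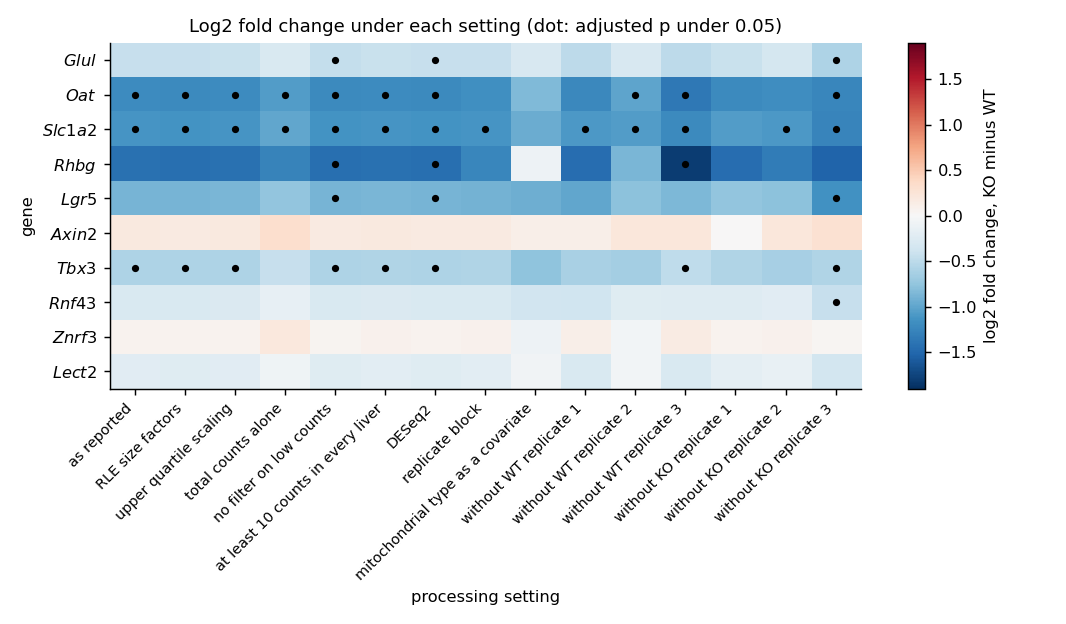
Log2 fold change of each gene (colour, *Themis*-KO minus WT) under each processing setting, with a dot where the adjusted p was under 0.05. *Slc1a2* has a dot in 13 of 15 settings, *Axin2*, *Znrf3* and *Lect2* in none, and the colour of *Rhbg* is near white with mitochondrial type as a covariate.

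Levels between genes were compared as CPM per kilobase of merged exon. *Glul* (434 ± 63.1, SD, n = 3) and *Oat* (389 ± 96.0) were the highest in the WT livers and did not differ beyond their spread. *Lect2* followed at 107 ± 19.8, then *Slc1a2* at 12.0 ± 1.26. *Tbx3* (6.75 ± 0.823) and *Rhbg* (6.69 ± 4.16) were within their spread of each other, and *Rnf43* stood at 4.17 ± 0.517. *Axin2* (1.64 ± 0.15) and *Znrf3* (1.46 ± 0.233) were also within their spread of each other, and *Lgr5* was the lowest at 0.547 ± 0.0828. In the *Themis*-KO livers *Glul* (322 ± 55.2) and *Oat* (169 ± 6.85) stood apart from each other, and *Lgr5* was again the lowest at 0.299 ± 0.0881.

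Ratios between the genes were compared within each liver. The ratio of *Glul* to *Oat* in CPM within a liver was 1.5, 1.45 and 1.86 in the WT livers and 2.59, 2.35 and 3.06 in the *Themis*-KO livers. The ratio was higher in all 3 *Themis*-KO livers (exact permutation p = 0.1, the smallest possible), with means of 1.6 ± 0.222 and 2.67 ± 0.360 (SD, n = 3). The ratio of *Glul* to *Axin2* was 164, 177 and 139 in the WT livers and 83.4, 92.5 and 149 in the *Themis*-KO livers, so *Themis*-KO 3 lay among the WT livers (exact permutation p = 0.2). WT 2 had the highest level in 7 of the 10 genes and *Themis*-KO 2 the lowest in 5. Together the 10 genes took 0.239%, 0.304% and 0.234% of the counts in the WT livers and 0.177%, 0.161% and 0.199% in the *Themis*-KO livers, and most of this share was *Glul* and *Oat*. Genes among those most like *Glul* over the 6 livers, by the root mean square difference of their log2 CPM after centring, were *9430038I01Rik* (0.025) and *Vti1a* (0.035). Those most like *Axin2* were *AI837181* (0.054), *Thrap3* (0.055) and *Fam129b* (0.055).

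Other pericentral hepatocyte genes were lower as well. Of 22 such genes, 11 fell and none rose, where 4.14% of all genes tested were lower, and their median log2 fold change was −0.58. At an unadjusted p under 0.05, 13 had a negative and 1 a positive difference. The cytochrome P450 genes, which oxidize drugs and lipids, made up most of the 11 that fell. Of 8 such genes 7 were lower, among them all 4 *Cyp2c* genes of the list. *Cyp2c54* fell from 52.3 ± 18.1 to 7.49 ± 2.35 CPM (SD, n = 3), a log2 fold change of −2.81. *Cyp2c37* fell by 1.58 and *Cyp2c50* by 1.33 on the log2 scale. *Rgn*, which encodes the calcium-binding protein regucalcin, fell from 970 ± 56.1 to 516 ± 33.2 CPM, a log2 fold change of −0.91. The edgeR adjusted p of these 4 genes was between 0.00926 and 0.00936. The 4 *Cyp2c* genes are near-identical copies in part, so the division of reads among them is uncertain. Without *Themis*-KO 1 the adjusted p of the 4 genes named was 0.0504 to 0.0506, and they passed without any other single liver.

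The difference was not limited to pericentral genes. Of 20 periportal hepatocyte genes, 5 were lower and none higher, where 4.14% of all genes tested were lower and 4.97% higher. Their median log2 fold change was −0.39, beside 0.0095 over all genes tested. At an unadjusted p under 0.05, 9 had a negative and 3 a positive difference. *Hal*, which encodes the histidine-degrading enzyme histidase, stood at 174, 141 and 129 CPM in the WT livers and at 51.6, 68.4 and 66.9 CPM in the *Themis*-KO livers (log2 fold change −1.25, edgeR adjusted p = 0.0112). The mitochondrial glutaminase gene *Gls2* (−0.72), the urea cycle gene *Asl* (−0.73) and *Pigr*, which encodes the receptor that carries IgA into bile (−0.68), were lower as well, with adjusted p-values from 0.0131 to 0.0448. Whether pericentral and periportal genes differed in the size of their change was not tested. Of 5 midlobular genes, *Igfbp2*, which encodes a binding protein of insulin-like growth factors, was lower (log2 fold change −1.22, edgeR adjusted p = 0.0273) and the other 4 did not pass. The summed hepatocyte markers were lower in every *Themis*-KO liver than in every WT liver, and 1 of the 13, *Serpina1a*, passed the threshold (log2 fold change −0.56, edgeR adjusted p = 0.0288). *Serpina1a* has near-identical copies, so its reads are uncertain, and the part of the hepatocyte share in the zonation genes was not tested. With 1 liver left out, *Hal* missed the threshold without *Themis*-KO 1 (adjusted p = 0.0504) and passed without each of the others. *Asl*, *Pigr*, *Igfbp2* and *Serpina1a* did not pass without WT 1, WT 2, *Themis*-KO 1 or *Themis*-KO 2 (adjusted p from 0.0512 to 0.157), and *Asl* did not pass without WT 3 either (adjusted p = 0.0736). *Gls2* did not pass without WT 1, *Themis*-KO 1 or *Themis*-KO 2 (adjusted p from 0.0563 to 0.0703).

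**Figure D4:**
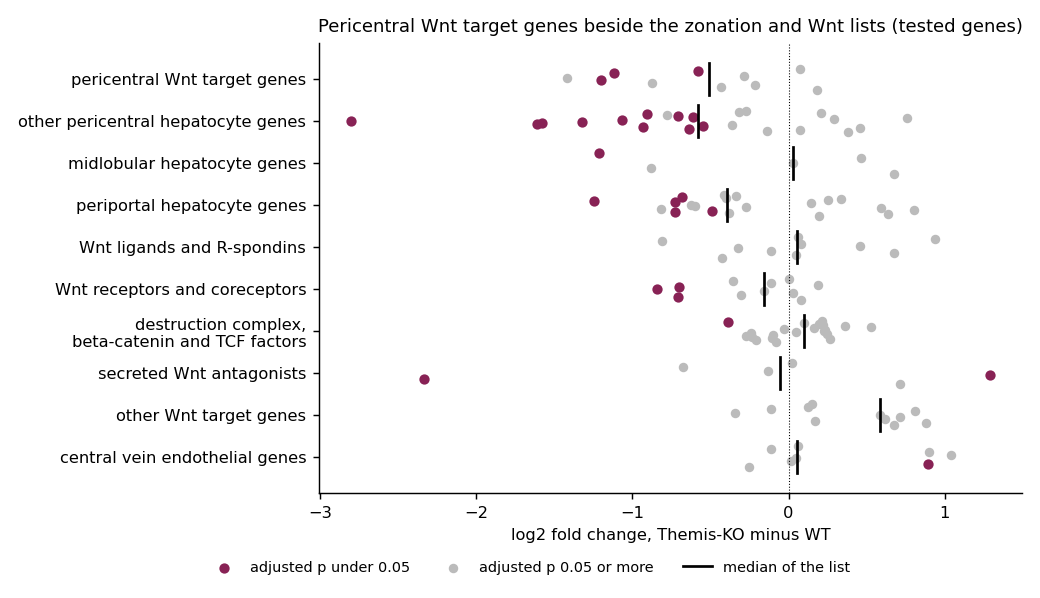
Log2 fold changes (*Themis*-KO minus WT) of the tested genes of each zonation and Wnt list, with the median of each list as a bar and genes past an adjusted p of 0.05 in colour. The pericentral and periportal lists have medians below 0 (−0.58 and −0.39), and the medians of the Wnt ligands (0.05) and of the destruction complex list (0.10) lie near 0.

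Of the Wnt ligands, R-spondins and their secretion factors, 10 of the 20 listed genes were tested and none passed (edgeR), while 2 had a positive and 1 a negative difference at an unadjusted p under 0.05 and the median log2 fold change was 0.05. *Rspo3*, the R-spondin of the central vein, stood at 8.67, 9.55 and 7.70 CPM in the WT livers and at 8.37, 8.86 and 9.54 CPM in the *Themis*-KO livers. The groups overlapped, and the interval of its log2 fold change ran from −0.26 to 0.35. *Wnt2* was at 1.70, 2.40 and 2.09 CPM in the WT livers and 2.08, 1.46 and 2.17 CPM in the *Themis*-KO livers, and *Wnt9b* at 0.642, 1.01 and 1.11 CPM against 0.680, 1.12 and 1.09 CPM. Their log2 fold changes were −0.11 (95% interval −0.68 to 0.45) and 0.06 (95% interval −0.70 to 0.82). The sign for *Wnt9b* turned with mitochondrial type as a covariate (−0.20). By total counts alone *Wnt2* stood at 0.020, still below the median of all genes in that scaling, 0.147.

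Among the receptors, 3 of 11 tested genes were lower and none was higher, where 4.14% and 4.97% of all genes tested were. The median log2 fold change was −0.16. *Lgr4*, the second R-spondin receptor of the liver, stood at 43.5, 38.4 and 40.3 CPM in the WT livers and at 26.1, 22.8 and 26.4 CPM in the *Themis*-KO livers. The groups were far apart for their spread (log2 fold change −0.70, SE 0.0958, edgeR adjusted p = 0.0131). The Frizzled genes *Fzd8* (log2 fold change −0.84, edgeR adjusted p = 0.0194) and *Fzd4* (log2 fold change −0.71, edgeR adjusted p = 0.0237) were the other two that fell. *Fzd4* stood at 72.8, 71.1 and 66.1 CPM in the WT livers and at 46.0, 35.2 and 47.2 CPM in the *Themis*-KO livers. All 3 are expressed by more than one liver cell type. None of the 3 passed when WT 1, WT 2, *Themis*-KO 1 or *Themis*-KO 2 was left out (adjusted p from 0.0512 to 0.103).

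In the list of the destruction complex, β-catenin and TCF factors, 1 of 21 tested genes was lower and none higher, a share near the 4.14% of all genes tested that were lower, and the median log2 fold change was 0.10. The lower gene was *Tnks*, which encodes a tankyrase that marks Axin for degradation (log2 fold change −0.39, edgeR adjusted p = 0.0442). When each liver was left out in turn, *Tnks* passed only without *Themis*-KO 3, and its adjusted p was otherwise between 0.10 and 0.152. *Ctnnb1*, which encodes β-catenin, stood at 270, 250.2 and 292 CPM in the WT livers and at 354, 324 and 284 CPM in the *Themis*-KO livers. *Themis*-KO 3 lay below the highest WT liver (log2 fold change 0.24, 95% interval −0.01 to 0.50, edgeR adjusted p = 0.174). *Tcf7l2*, the main TCF factor of hepatocytes, had a log2 fold change of 0.10 (95% interval −0.15 to 0.34).

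Of 6 secreted Wnt antagonists tested, 1 was lower and 1 was higher, where 4.14% and 4.97% of all genes tested were. *Dkk4*, which encodes a secreted inhibitor of the Lrp coreceptors and is itself a Wnt target, was at 2.02, 1.10 and 1.62 CPM in the WT livers and at 0.425, 0.215 and 0.283 CPM in the *Themis*-KO livers (log2 fold change −2.34, SE 0.375, edgeR adjusted p = 0.0206). *Frzb*, which encodes a secreted Frizzled-related protein, stood at 3.39, 2.98 and 3.39 CPM in the WT livers and at 9.01, 8.34 and 6.61 CPM in the *Themis*-KO livers (log2 fold change 1.29, SE 0.168, edgeR adjusted p = 0.0123). Neither passed when WT 1, WT 2, *Themis*-KO 1 or *Themis*-KO 2 was left out (adjusted p from 0.0512 to 0.0989). Other Wnt target genes, chosen without regard to zonation, were also measured. None of 11 passed in edgeR. At an unadjusted p under 0.05, 3 had a positive and none a negative difference, and the median log2 fold change was 0.59. *Cldn2*, a tight junction gene, had a log2 fold change of 0.17 (adjusted p = 0.433) and *Ccnd1*, which encodes cyclin D1, of 0.67 (adjusted p = 0.0614). *Sox9* of this list is also a cholangiocyte marker, and *Ccnd1* is also counted among the midlobular genes. The summed cholangiocyte markers, mostly *Spp1*, were higher in every *Themis*-KO liver, and the part of those cells was not tested. The Wnt lists together held 59 tested genes, of which 5 were lower and 1 was higher, where 4.14% and 4.97% of all genes tested were. With mitochondrial type as a covariate no gene of the zonation and Wnt lists passed.

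Genes of central vein endothelial cells were examined as the source of the signals. Of 8 tested, none was lower and 1, *Fabp4*, was higher. It encodes a fatty acid binding protein also made by other endothelial cells and macrophages. *Fabp4* stood at 32.2, 25.2 and 37.3 CPM in the WT livers and at 64.7, 61.4 and 50.3 CPM in the *Themis*-KO livers (log2 fold change 0.90, edgeR adjusted p = 0.0246). At an unadjusted p under 0.05, 3 of the 8 had a positive difference, *Fabp4* among them, and none a negative one. Of 10 general endothelial markers none passed in edgeR, although 2 had a positive difference at an unadjusted p under 0.05 and none a negative one, and their summed level was 311 to 351 CPM in WT livers and 335 to 386 CPM in *Themis*-KO livers. The markers of other cells were higher in part. Over all genes tested, 4.14% were lower and 4.97% higher. Of the cholangiocyte markers 2 of 9 rose (*Spp1*, log2 fold change 1.44, and *Cldn7*, 1.35), as did 3 of 12 macrophage markers (*Cd68*, *Ctss* and *Mpeg1*) and 5 of 12 stellate cell markers, among them the collagen genes *Col1a1*, *Col1a2* and *Col3a1*. The summed macrophage markers were 521 to 827 CPM in WT livers, with WT 3 the highest, and 832 to 1071 CPM in *Themis*-KO livers. Of the lymphocyte markers, *Cd4* was lower (log2 fold change −1.46, edgeR adjusted p = 0.0386), the other 5 tested T cell markers did not pass, and none of 6 B cell markers passed at an adjusted or an unadjusted p under 0.05. *Fabp4*, *Cldn7*, *Cd68*, *Ctss*, *Mpeg1*, *Col1a1* and *Cd4* did not pass when WT 1, WT 2, *Themis*-KO 1 or *Themis*-KO 2 was left out (adjusted p from 0.0611 to 0.141). *Cldn7* and *Cd4* did not pass without WT 3 either (edgeR adjusted p = 0.0886 and 0.082). *Spp1* did not pass without WT 1 or WT 2, and *Col1a2* and *Col3a1* did not pass without WT 1 or *Themis*-KO 1 (adjusted p from 0.0504 to 0.0645).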

How the data were processed

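Poly(A) RNA of 6 livers was sequenced as paired-end libraries. Per the labels and the methods, the authors trimmed reads with cutadapt 2.3, mapped them to GRCm38 with STAR 2.7.8a and assigned them to genes with RSEM 1.3.3. The deposited table holds 1 estimated count for each gene in each liver, made by the authors, not normalized and in whole numbers. The rounding is not described, and the annotation release and the use of strand are not given in the sources used here. RSEM divides reads that fit several genes among them. All 6 columns were used and mapped to groups by the sample labels.

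Counts were fitted in R 4.3.3 with edgeR 4.0.16 (filterByExpr, which removed 10907 genes, TMM scaling, glmQLFit, glmQLFTest) on all 6 livers with no covariate. DESeq2 1.42.0 was used as an alternative test, and limma 3.58.1 was loaded without a fit of its own. Benjamini-Hochberg adjustment ran over 14496 genes, with a threshold of 0.05. Standard errors and 95% intervals were derived from the F statistics. Levels in CPM were TMM-normalized, with a prior count of 2 only where log2 CPM were compared. Depth was 20679642 to 25649767 counts per library. Where nothing says that livers of a group were handled apart, the p-values measure the spread between these livers. For each gene, edgeR moderates this spread with that of the other genes tested. In the WT group the spread includes that between WT 3 and the livers of the other mitochondrial type.

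The genes and lists were chosen with earlier results of these data known, so their directions are no independent evidence. The genes named are the 10 target genes, *Themis*, the genes most like *Glul* and *Axin2* in pattern, Wnt signals and transducers of the central vein, and up to 4 genes with the smallest p among those past the threshold in each list, or the most abundant ones where none passed. Some markers covered by the rule are given only by count. A gene that the rule covers is not reported here. *Tbx3os1* and *Gm38392* were named because they overlap a target gene, and the Cyp2c and P450 counts were made after the values were seen.

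Coordinates and exon lengths are from GENCODE vM21 (25321 of 25403 listed genes matched), and promoter windows from RefSeq GRCm38.p6, which held entries for 6 of the 10 genes. The fits were checked on simulated counts. The alternatives were other scalings, filters and thresholds, DESeq2, the replicate number as a block, mitochondrial type as a covariate and each liver left out in turn. Figures were drawn with matplotlib 3.10.9.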

Additional observations from a re-analysis of the deposited data

How the results depend on the processing

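Among all genes tested, 721 were higher and 600 lower. These counts were 1449 and 387 by total counts alone, 1212 and 967 with no filter on low counts, 1279 and 1090 with DESeq2, 269 and 162 with at least a 2-fold change, and 2438 and 2011 at an unadjusted p under 0.05. Total counts alone moved the median log2 fold change of all genes from 0.0095 to 0.147 and the share of lower genes among the calls from 45.4% to 21.1%. With mitochondrial type as a covariate the counts were 0 and 3, and with 1 liver left out they ran from 8 to 2228 higher and from 12 to 2039 lower. The lowest counts, 8 and 12, were without *Themis*-KO 1 and the highest without *Themis*-KO 3.

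Of the 10 pericentral Wnt target genes, 3 were lower. This became 2 by total counts alone (without *Tbx3*), 6 with no filter, with DESeq2 and at an unadjusted p, 0 with mitochondrial type as a covariate, and 0 to 6 with 1 liver left out (0 without *Themis*-KO 1, 1 without WT 1 or *Themis*-KO 2, 6 without *Themis*-KO 3). None was higher in any setting, and their median log2 fold change was −0.33 with the covariate and −0.58 to −0.48 with 1 liver left out. The share of all genes tested that were lower moved as well. It was 4.14% as reported, 2.67% by total counts alone, 3.81% with no filter and 7.52% with DESeq2. It was 0.0814% without *Themis*-KO 1 and 13.8% without *Themis*-KO 3. At an unadjusted p under 0.05, 2011 of 14496 genes were lower. In the zonation and Wnt lists, 2 genes were higher and 22 lower. Higher genes numbered 6 by total counts alone, 11 with no filter and with DESeq2, 16 at an unadjusted p, 1 with a 2-fold change and 0 with the covariate, and lower genes 8 with a 2-fold change and 0 with the covariate. With 1 liver left out the ranges were 0 to 15 higher and 0 to 35 lower. The cause of these shifts was not tested.

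Whether the replicate numbers pair the livers could not be decided from so few livers, whose deviations were centred within each group. The paper describes the sequenced livers as pairs of WT and *Themis*-KO, without saying whether the replicate numbers mark them. Same-numbered livers had a mean correlation of −0.13 in their deviations from the group means, and differently numbered livers 0.066. With the replicate block, 17 genes were higher and 45 lower, 1 of the 10 target genes (*Slc1a2*, adjusted p = 0.0495) was lower, and in the lists 0 were higher and 4 lower.

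The sign of some genes that did not pass was not stable. *Znrf3* turned to −0.0896 with the covariate and ran from −0.0553 to 0.16 with 1 liver left out, and *Wnt9b* turned to −0.20 with the covariate and ran from −0.14 to 0.25. *Wnt2* ran from −0.24 to 0.037 with 1 liver left out, and its value of 0.020 by total counts alone follows the shift of all genes in that scaling. With 1 liver left out, *Rspo3* ran from −0.0321 to 0.12, *Fam129b* from −0.0507 to 0.29, *Stab2* from −0.0422 to 0.14 and *Cd79b* from −0.0646 to 0.60. The calls rest on 3 livers per group and on 1 WT liver of the shared mitochondrial type, and *Dkk4* rested on 10, 5 and 6 counts in the *Themis*-KO livers.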
